A study of Drosophila melanogaster with 2 samples.

Results

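Peaks of the CG5953 protein were read at 10 insulator and architectural protein genes of the fruit fly: Chro, Trl, Cp190, Dref, pzg, BEAF-32, lolal, psq, CTCF and su(Hw). The genes were taken by symbol from the Ensembl BDGP6 annotation, all 10 were found, and they are 10 of the 13968 protein-coding genes on the chromosome arms. The measurement was chromatin immunoprecipitation with sequencing (ChIP-seq) on whole Drosophila melanogaster embryos of 0 to 24 h, from a transgenic strain that carries CG5953 fused to enhanced green fluorescent protein (eGFP), with an antibody against GFP. There was 1 group with 2 biological replicates, so values were described per replicate and no comparison between conditions was possible. All embryonic stages and tissues were pooled in each sample, and the sources used here do not state how expression of the fusion was driven. CG5953 has no named function in the annotation, and its own promoter held a peak with a signal of 218, at 404 bp upstream of a transcription start site (TSS).

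Insulator proteins bind DNA between or beside genes and set how far regulatory elements act and how chromosomes fold. In the fly, zinc finger proteins such as CTCF, Su(Hw) and BEAF-32 bind their own DNA motifs and recruit Cp190, a BTB domain protein that bridges insulator sites. Chromator, the product of Chro, and Putzig (also called Z4), the product of pzg, occupy the decondensed interbands of polytene chromosomes. GAGA factor, the product of Trl, and Pipsqueak, the product of psq, bind GA-rich repeats in open chromatin and Polycomb response elements. The peaks described here are positions of CG5953-eGFP at the genes that encode these proteins, and they say nothing of where the proteins themselves were bound.

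The authors' conservative set, derived from both libraries, held 3016 peaks on the dm6 assembly after thresholding on the irreproducible discovery rate (IDR), which measures how well peak ranks repeat between lists. Each peak carries the authors' own signal value, whose unit is not stated, and which ran from 2.01 to 1168 with a median of 83.0. The authors also thresholded a larger list from both libraries (3305 peaks, here named the optimal set) and a separate list for replicate 1 (1975 peaks) and for replicate 2 (1663 peaks). The peak lists hold no reads, so the depth of the libraries is unknown. Peaks without a threshold are dense, with 141320 in the ranked list that compares the replicates and a median of 613 bp between neighbouring summits, so a ranked peak near a TSS is no sign of binding by itself.

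A gene was called bound where at least 1 of its annotated TSSs had a peak summit no farther than 500 bp away. In the conservative set 8 of the 10 genes were bound, which were Chro, Trl, Cp190, Dref, pzg, BEAF-32, lolal and psq, beside 11.3% of all protein-coding genes. CTCF and su(Hw) were not bound. The 10 genes were chosen with earlier results of these data known, so this count describes the list and is no measure of enrichment. The optimal set gave 7 of 10, without psq, beside 12.1% of protein-coding genes. Replicate 1's own thresholded list gave 5 of 10 (Chro, Trl, Cp190, Dref and pzg) beside 8.09%, and replicate 2's gave 4 of 10 (the same genes without pzg) beside 7.35%. With no threshold all 10 genes had a summit in the window, as did 82.8% of protein-coding genes. The 10 genes had a median of 2.5 TSSs against 1 over all protein-coding genes, and 4 of them had 1 TSS, so the windows of these genes cover more DNA. With the 5′-most TSS alone, the conservative count was 5 of 10, beside 9.65%.

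The bound genes differed widely in signal. The median signal of their 8 promoter peaks was 106, against 94.3 over all 1573 bound protein-coding genes, whose quartiles were 70.2 and 145. Of the 8 peaks, 5 exceeded the median of the conservative set. Among the 1573 bound protein-coding genes, 947 had a promoter peak at or above it, so 5 of 8 is close to the share over all of them. In the replicates' own lists Chro was far above the other genes, with 406 in replicate 1 and 261 in replicate 2. Trl and Cp190 came next and overlapped in the replicate values. Dref lay below both of them in each replicate. The values of pzg overlapped those of Dref, though Dref was higher in each replicate. By their replicate means, BEAF-32, lolal and psq lay lowest among the bound genes. The values of lolal overlapped those of BEAF-32 and of psq, whereas both BEAF-32 values were above both psq values. Within each replicate BEAF-32 was above lolal, and lolal was above psq in replicate 1 only.

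**Figure D1:**
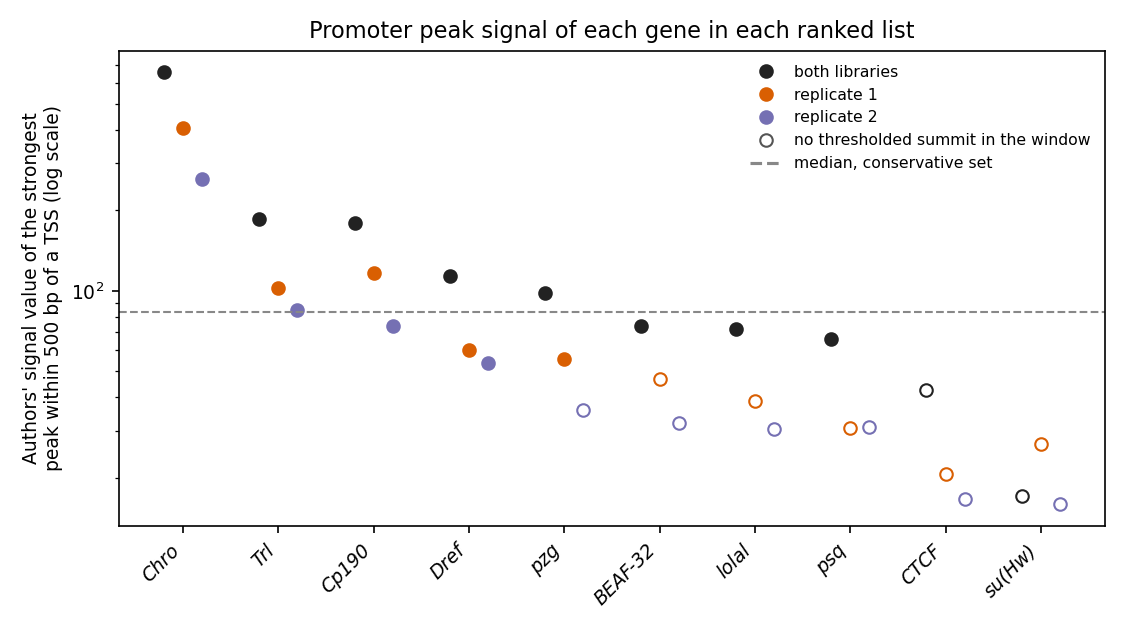
Authors' signal value (log scale) of the strongest ranked peak with its summit within 500 bp of a TSS, for each gene in the ranked list that compares both libraries and in each replicate's own ranked list. Filled points mark genes with a thresholded summit in that window and open points those without one. CTCF and su(Hw) have open points only. The dashed line is the conservative median of 83.0 and applies only to the points from both libraries. At the bound genes the signal from both libraries was 0.938 to 1.07 times the sum of the replicates' signals. Replicate points below the line are therefore not below a typical replicate peak on that ground.

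Chro (FBgn0044324, minus strand, chr3L:22873702-22878984) held the strongest peak of the 10 genes. The peak at chr3L:22878794-22879003 had a signal of 657, which ranked 19 in the conservative set, with an IDR of 1e-05, the smallest the ranked lists hold. Replicate 1 gave 406 and replicate 2 gave 261, or 334 ± 102 (SD, n = 2), and both replicates' thresholded lists held the peak. The replicates placed the summit 10 bp apart. The summit lay 99 bp downstream of the 5′-most TSS, in the 5′ UTR of 1 of 5 annotated transcripts. Ssl1, which encodes a subunit of the transcription and repair factor TFIIH, starts 105 bp from Chro in the opposite direction, and the same summit lay 204 bp upstream of its TSS. The peak therefore counts for both genes, and a summit alone does not assign it to one of them.

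Dref encodes the factor that binds the DNA replication-related element, and Putzig was found as a partner in a complex with it, so these genes are given together. Dref (FBgn0015664, minus strand, chr2L:9964147-9967229) had a peak at chr2L:9967131-9967426 with a signal of 113, ranked 874. Its replicate values were close, at 60.1 and 53.6, or 56.9 ± 4.62 (SD, n = 2), with the same summit base in each replicate. The summit lay 50 bp upstream of Dref and 34 bp upstream of RpL13, a ribosomal protein gene that starts 84 bp away on the other strand, so RpL13 is the nearer gene. The peak of pzg (FBgn0259785, plus strand, chr3L:21286099-21290310) at chr3L:21285808-21286103 had a signal of 97.9, ranked 1148. Replicate 1 gave 55.7 and replicate 2 gave 35.8, or 45.7 ± 14.1 (SD, n = 2). Replicate 1's thresholded list held this peak, whereas in replicate 2 it ranked 2222 with an IDR of 0.134 and did not pass. The summit lay 143 bp upstream of pzg and 6 bp inside CG12974, which starts 137 bp away on the other strand.

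At Chro, Dref and pzg the CGATA word recognised by BEAF-32 lay within 100 bp of the summit, 9, 35 and 34 bp from it. These 3 sites are shown because no other bound gene of the 10 had this word within 100 bp of its conservative promoter summit. Each is printed 5′ to 3′ on the strand of the gene, from the Release 6 genome, and the capitals mark the word, which reads TATCG on these strands. The Dref run covers the 83 bases between the TSSs of Dref and RpL13, and the others are the word with its flanks.
Chro, chr3L:22878881-22878907, minus strand: tagtttaaagcTATCGacaggcaatac
Dref, chr2L:9967230-9967312, minus strand: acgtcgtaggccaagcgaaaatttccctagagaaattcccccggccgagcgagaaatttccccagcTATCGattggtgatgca
pzg, chr3L:21285909-21285935, plus strand: aataattacgtTATCGtaatgaacggc
A word of 5 letters is common. It occurred within 100 bp of 31.8% of the 1172 promoter summits of bound protein-coding genes, so 3 of 8 here is close to the share over all of them.

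Cp190 (FBgn0000283, minus strand, chr3R:15270432-15275241) had a peak at chr3R:15275225-15275520 with a signal of 179, ranked 365. Replicate 1 gave 117 and replicate 2 gave 73.7, or 95.3 ± 30.5 (SD, n = 2), and both thresholded lists held it. The summits of the replicates lay 107 bp apart, the widest gap among the bound genes, and the conservative summit lay 132 bp upstream of Cp190 and 149 bp upstream of CG4338. These genes start 281 bp apart in opposite directions. The DNA under the summit was AT-rich. GC made up 22.9% of the 201 bases around it, and 0.512% of the 1172 promoter summits had a value that low or lower, with quartiles of 31.8 and 44.8% and a median of 37.3%. The 201 bases are shown for this composition, on the strand of Cp190, with the summit in the middle, and hold none of the 6 motifs searched. The second run is the site at the TSS of Cp190, where the letters TATCGATA (the DNA replication-related element bound by Dref) are in capitals and are centred on the 5′-most TSS itself. Replicate 2's own summit lay 77 bp upstream of this TSS. The letters were therefore within 100 bp of that summit, though not of the conservative summit.
Cp190 summit, chr3R:15275273-15275473, minus strand: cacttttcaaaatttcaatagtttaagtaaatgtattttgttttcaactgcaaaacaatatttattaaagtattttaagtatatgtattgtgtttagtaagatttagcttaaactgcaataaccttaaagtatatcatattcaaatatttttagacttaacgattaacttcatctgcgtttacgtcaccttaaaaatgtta
Cp190 TSS, chr3R:15275228-15275255, minus strand: atcgcatggcTATCGATAgctgccgagc

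CTCF and su(Hw), which encode DNA-binding proteins that recruit Cp190, had no thresholded summit within 500 bp of their single TSS. For CTCF (FBgn0035769, minus strand, chr3L:7353578-7356713) the best ranked summit in that window lay 183 bp downstream of the TSS, with a signal of 42.7, a rank of 8990 in the ranked list and an IDR of 0.159. The replicates gave 20.7 and 16.6 there, both below the lowest replicate value of any bound gene. The nearest conservative peak, at chr3L:7357935-7358230, lay 1370 bp upstream of CTCF in a coding exon of the neighbouring gene pst. Its signal was 72.4, with 46.2 in replicate 1 and 25.1 in replicate 2, or 35.6 ± 14.9 (SD, n = 2), and it passed in replicate 1's list and not in replicate 2's, where its IDR was 0.758. For su(Hw) (FBgn0003567, minus strand, chr3R:14304455-14308589) no thresholded peak lay in the gene or within 1500 bp of it. Its best ranked summit in the window, 481 bp from the TSS, had a signal of 17.1 and a rank of 82767. A ranked summit just outside the window, 518 bp upstream, had a signal of 48.7, a rank of 5471 and an IDR of 0.0145. Polr2I, an RNA polymerase II subunit gene, starts 500 bp from su(Hw) in the opposite direction, so Polr2I is the nearer gene. Both replicates' own ranked lists held a peak that overlaps this ranked peak. Replicate 1's summit was 450 bp upstream, inside the window, with a signal of 26.6 and an IDR of 0.0828, and replicate 2's was 525 bp upstream, outside it, with 25.5 and an IDR of 0.109. Inside the window replicate 2's best summit was 144 bp downstream, with a signal of 15.9.

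The promoters of these unbound genes did hold core promoter words, which are shown so that their sequence can be read beside that of the bound genes. At CTCF the word TATCGATA was centred 17 bp upstream of the TSS. At su(Hw) the word GGTCACACT, the Motif 1 element bound by M1BP, was centred 9 bp downstream. Both are printed on the strand of the gene with the word in capitals.
CTCF, chr3L:7356717-7356744, minus strand: ccaatcgaacTATCGATAgctggcggta
su(Hw), chr3R:14308566-14308594, minus strand: tacatgcaacGGTCACACTgaattttcat

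Trl (FBgn0013263, minus strand, chr3L:14747929-14761049, 4 TSSs) was the only one of the 10 genes with conservative summits in its body farther than 500 bp from every TSS of the gene. It had 3 of them besides its promoter peak. Across protein-coding genes 6.30% had at least 1 such summit, and 124 genes had 3 or more. The promoter peak, at chr3L:14757075-14757370, lay 113 bp downstream of the 3′-most TSS, in the 5′ UTR of all 10 transcripts. Its signal was 185, ranked 348, with 103 and 84.7 in the replicates, or 93.7 ± 12.8 (SD, n = 2). The summit also lay in a 5′ UTR of CG42507, a gene that overlaps Trl.

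The strongest Trl peak was not at a promoter. It lay at chr3L:14759420-14759550, in an intron that belongs to 1 of the 10 transcripts, 1531 bp upstream of the nearest TSS. Its signal was 431, ranked 65, and replicate 1 gave 272 and replicate 2 gave 153, or 212 ± 83.9 (SD, n = 2). In each replicate it exceeded the promoter peak of the same gene, and both thresholded lists held it. In the same intron a weaker peak at chr3L:14760240-14760535, 661 bp downstream of the 5′-most TSS, had a signal of 70.8, with 42.4 and 38.6 in the replicates, or 40.5 ± 2.74 (SD, n = 2). The other weak peak, at chr3L:14756095-14756390, 1093 bp downstream of a TSS and in an intron of all transcripts, had 96.9, with 54.6 and 42.1, or 48.3 ± 8.82 (SD, n = 2). Both weaker peaks passed in replicate 1's list and not in replicate 2's, where each was ranked with a similar signal. A further intronic peak at chr3L:14755509-14755804, in the optimal set and not in the conservative one, differed between the replicates, at 14.8 and 42.6. The summits of this peak and of the one at chr3L:14756095-14756390 also lay in an intron of CG42507.

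**Figure D2:**
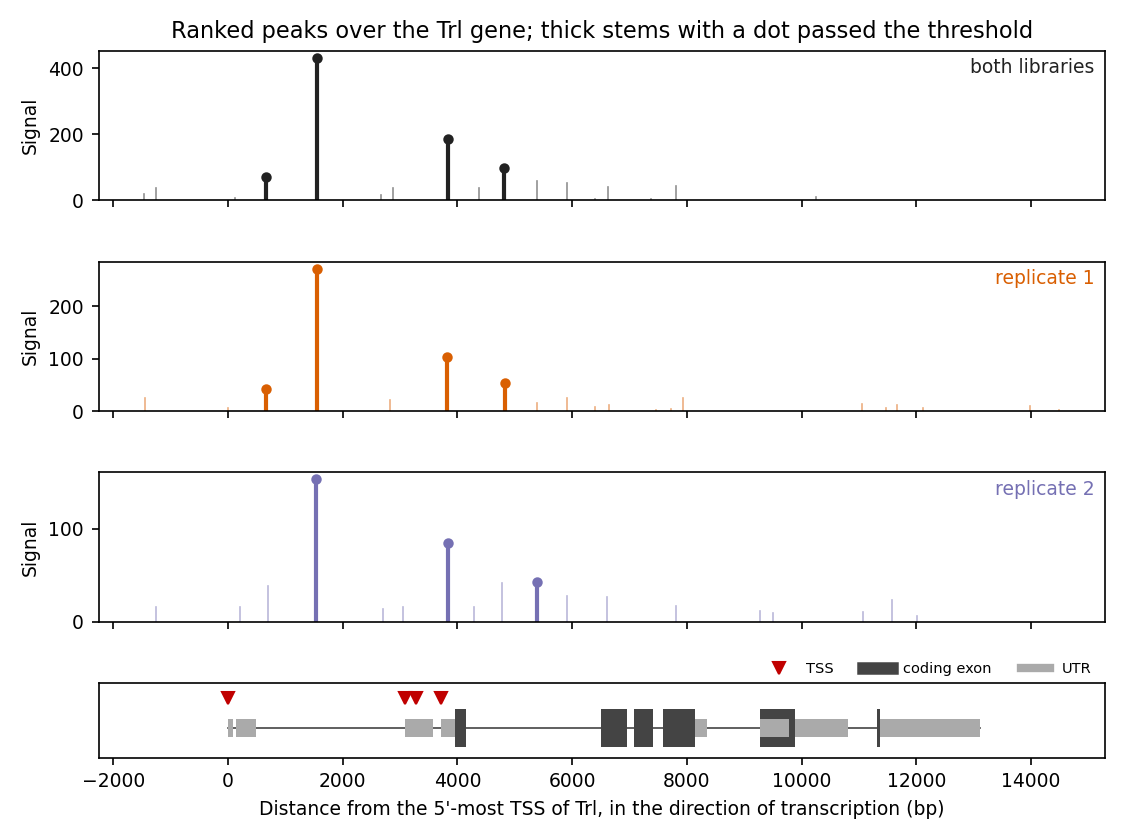
Signal value of every ranked peak over Trl and 1500 bp on either side, by distance (bp) from its 5′-most TSS in the direction of transcription, in the ranked list that compares both libraries and in each replicate's own list; thick stems with dots passed the threshold of the matching list. The lowest panel shows TSSs, coding exons and UTRs, and the tallest stem in all panels is the intronic peak, with 431, 272 and 153.

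The 201 bases around the summits of the 2 peaks in this intron are shown because they are the gene's strongest and weakest conservative peaks and lie outside every exon. The strongest one held none of the 6 motifs searched and was 28.4% GC, a value that 8.96% of the 1172 promoter summits matched or fell below. The weaker one held the GAGAG word that GAGA factor itself recognises, as a run of overlapping matches 95 and 97 bp from the summit, in capitals. Both are printed on the strand of Trl.
Trl strongest intron summit, chr3L:14759393-14759593, minus strand: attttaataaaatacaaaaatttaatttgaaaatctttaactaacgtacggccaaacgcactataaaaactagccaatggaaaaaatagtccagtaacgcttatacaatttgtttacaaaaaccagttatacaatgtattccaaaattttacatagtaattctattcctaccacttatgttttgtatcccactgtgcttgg
Trl weaker intron summit, chr3L:14760288-14760488, minus strand: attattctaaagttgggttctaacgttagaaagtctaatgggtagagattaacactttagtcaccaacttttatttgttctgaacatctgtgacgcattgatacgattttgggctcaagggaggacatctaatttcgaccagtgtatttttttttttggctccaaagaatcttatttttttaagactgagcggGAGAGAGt

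The promoter peaks of psq and lolal were weaker than the promoter peak of Trl. The peak of psq (FBgn0263102, plus strand, chr2R:10557888-10617280) lay at chr2R:10568389-10568684, 405 bp upstream of an internal TSS and in an intron of 6 of 15 transcripts. Its signal was 66.1, ranked 2176. Its replicate values were the most alike of the bound genes, at 30.6 and 31.0, or 30.8 ± 0.306 (SD, n = 2), yet it passed in neither replicate's own list and is absent from the optimal set. With a window of 250 bp psq was not bound. The optimal set held 2 other psq peaks, both intronic and both unequal between replicates. The one at chr2R:10582260-10582555 gave 20.4 and 48.5, and the one at chr2R:10564987-10565282 gave 36.7 and 21.1. The gene lolal encodes Batman, a BTB protein that pairs with GAGA factor. It (FBgn0022238, minus strand, chr2R:18154095-18158192) had its peak at chr2R:18156708-18157003, 36 bp downstream of an internal TSS, with a signal of 72.2, ranked 1883. The replicates gave 38.7 and 30.5, or 34.6 ± 5.83 (SD, n = 2), and neither thresholded list held it.

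BEAF-32 (FBgn0015602, plus strand, chr2R:14770469-14772630) encodes the boundary element-associated factor. Its peak at chr2R:14770257-14770552 lay 64 bp upstream of the 5′-most TSS and had a signal of 73.9, ranked 1816, with an IDR of 0.0023. Replicate 1 gave 46.7 and replicate 2 gave 32.2, or 39.4 ± 10.3 (SD, n = 2). The peak missed the threshold in both replicates' own lists, by little in replicate 1 (IDR 0.0127) and by much in replicate 2 (IDR 0.507). The summit also lay in an exon of the noncoding gene asRNA:CR42254, 135 bp upstream of a TSS of it.

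**Figure D3:**
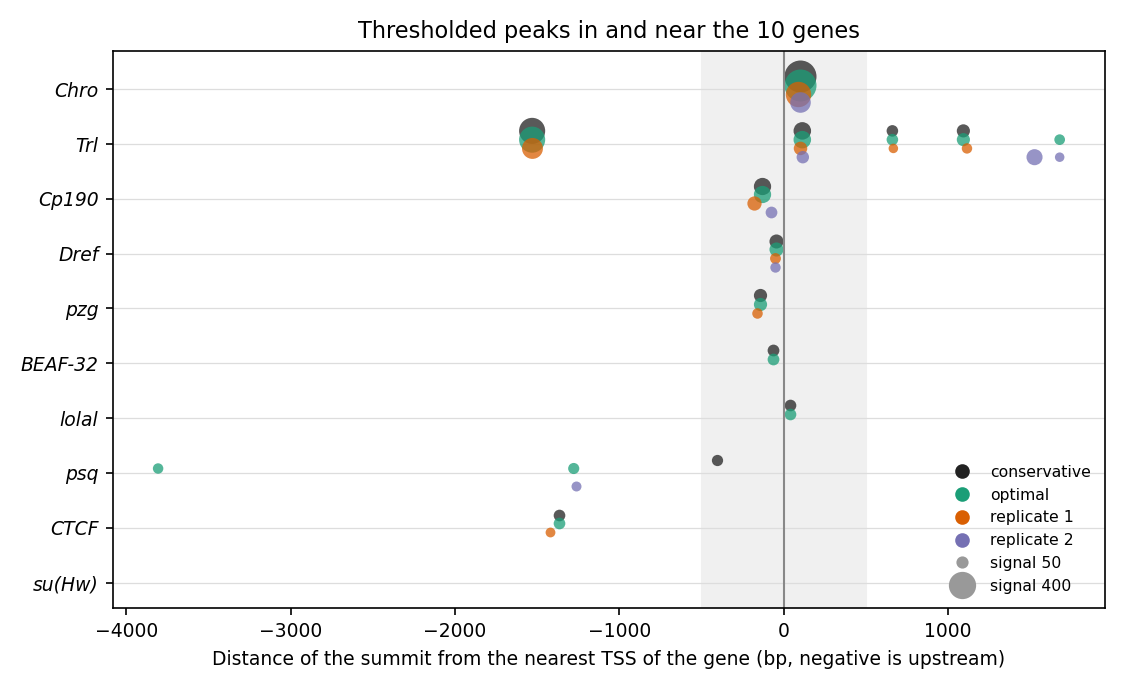
Summits of all thresholded peaks in the 10 genes and 1500 bp on either side, by distance (bp) from the nearest TSS of the gene, with negative values upstream; colour gives the list, point area grows with the signal, and the grey band is the 500 bp window. The strongest Trl peak lies near the midpoint between neighbouring TSSs, so replicate 2's summit of it is drawn downstream and the other lists' upstream, and su(Hw) has no point.

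At the 8 promoter peaks the replicates' summits were a median of 19 bp apart, and 7 of 8 were within 100 bp. Over the 1161 of 1172 promoter peaks of protein-coding genes that had a match in both replicates, the median was 25 bp, with quartiles of 10 and 52 bp. Replicate 1 was higher than replicate 2 for 7 of the 8 genes, with ratios from 0.986 to 1.58, beside a median of 1.10 over all those peaks and quartiles of 0.873 and 1.43. Both replicates' thresholded lists held a matching peak for 4 of the 8 genes, replicate 1's alone for 1 and neither for 3, beside 47.2, 17.0 and 24.0% of the bound protein-coding genes. In place, 5 of the 8 summits lay upstream of the TSS, beside 79.8% over all bound protein-coding genes.

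**Figure D4:**
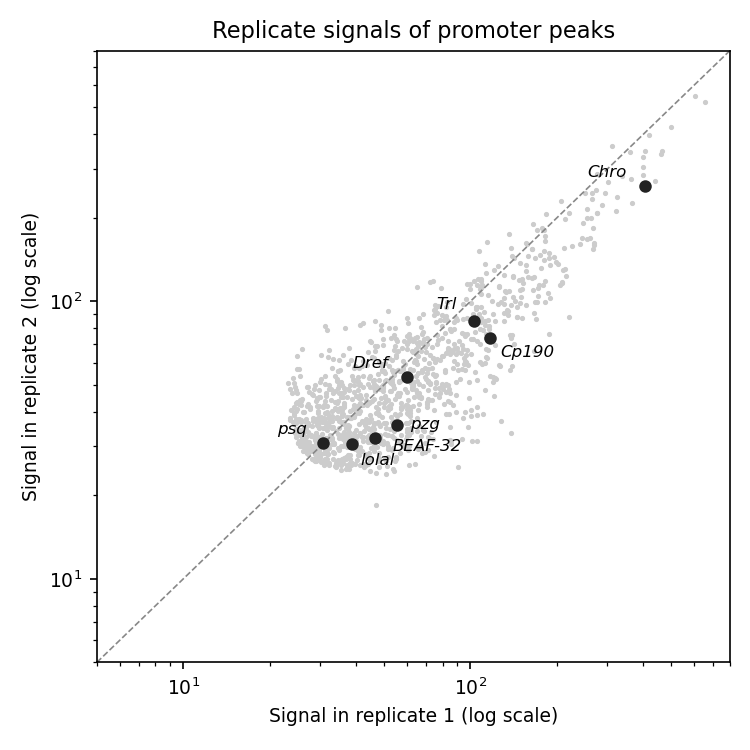
Signal of the strongest overlapping peak in replicate 1's and replicate 2's own ranked lists (both log scale) for the promoter peaks of bound protein-coding genes (grey, 1161 peaks) and for the 8 bound genes described here (black). The dashed line marks equal signal; 7 of the 8 black points lie below it and psq lies next to it.

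Among all conservative peaks ranked by signal, the Chro promoter and the strongest Trl intron peak were within the top 65, the Trl and Cp190 promoters at ranks 348 and 365, and the others from rank 874 down.

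**Figure D5:**
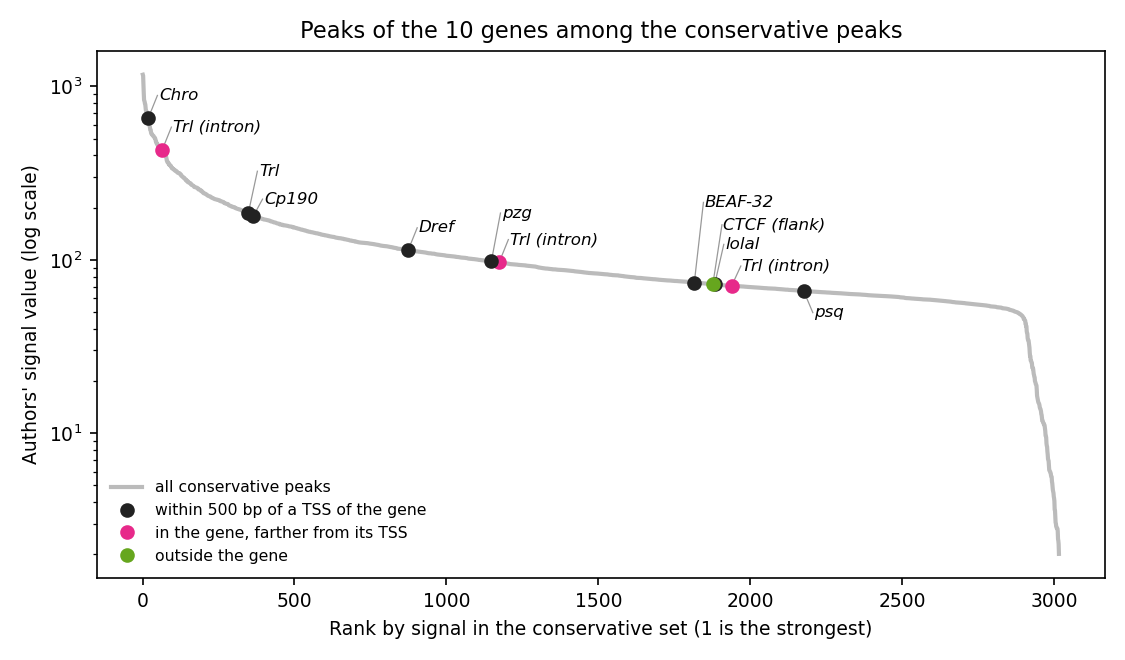
Signal value (log scale) against rank for all conservative peaks (grey line), with the peaks of the 10 genes marked by place. Chro, at rank 19 with 657, and the Trl intron peak, at rank 65 with 431, lie on the steep part of the curve, and BEAF-32, lolal, psq, the CTCF flank and the weakest Trl intron peak lie between ranks 1816 and 2176.

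The 6 motifs bound by proteins of this kind were searched on both strands in the 300 bases from 250 before to 50 after the 5′-most TSS. CGATA was in 7 of the 10 promoters, the exceptions being Chro, Trl and su(Hw), beside 47.3% of all protein-coding promoters. TATCGATA, which holds CGATA on both strands, was in 3 (Cp190, BEAF-32 and CTCF) beside 9.36%. GAGAG was in 1 (lolal) beside 29.7%, TTGCATA, the Su(Hw) core, in 1 (psq) beside 6.47%, and GGTCACACT in 1 (su(Hw)) beside 6.04%. The CTCF core AGNNGGCGC was in none beside 2.81%. Within 100 bp of the 8 conservative promoter summits the counts were different. For Trl, lolal and psq these summits lay 3826, 1336 and 10649 bp downstream of the 5′-most TSS, so different DNA was read there. TATCGATA, TTGCATA and GGTCACACT were near none of the 8 summits, beside 5.20, 4.78 and 2.65% of the 1172 promoter summits, GAGAG was near 1 (lolal, 3 and 55 bp away) beside 25.3%, and AGNNGGCGC near 1 (psq) beside 3.50%. With 10 promoters and 8 summits these counts are descriptions of the letters found and do not set the genes apart from others.

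Other genes of insulator and chromosome architecture, taken as 3 lists of 33 symbols, were read in the same way. These lists too were written with earlier results of these data known. Of 11 genes for further DNA-binding insulator proteins (pita, ZIPIC, Ibf1, Ibf2, dwg, insv, Elba1, Elba2, Elba3, M1BP and Clamp), 0 were bound in the conservative set, and 0 in the optimal set and in both replicates' lists. The shares over all protein-coding genes were 11.3% in the conservative set, 12.1% in the optimal set, and 8.09 and 7.35% in the replicates' lists. With 11 genes, a count of 0 does not set this list apart. Of 12 cofactors and partners, 4 were bound (33.3%), beside the 11.3% of all protein-coding genes. These were row with a signal of 133, JIL-1 with 86.6, E(bx) with 84.0 and shep with 73.1. The replicates were unequal at row, a zinc finger gene, with 93.7 and 31.8. They were close at JIL-1, which encodes a histone H3 kinase of interbands that binds Chromator, with 44.5 and 42.9. At E(bx), the large subunit of the NURF remodeller, they gave 36.0 and 45.1, and at shep, whose product acts with the gypsy insulator, 44.1 and 31.6. JIL-1 and mod(mdg4), the BTB partner gene of su(Hw), each had 3 conservative summits in the gene body, and mod(mdg4) had none at its promoter. In the gene body shep had 2, and the remaining genes of the 3 lists had none. Across protein-coding genes 6.30% had at least 1 such summit, and 124 genes had 3 or more.

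Of 10 cohesin and condensin genes 2 were bound (20.0%), beside 11.3% of all protein-coding genes, so a count this small is near that share. SA1, a cohesin subunit gene, had a signal of 64.3 at 300 bp from its TSS, with 36.8 and 24.8 in the replicates. Cap-H2, a condensin II subunit gene, had 89.2 at 294 bp upstream, with 40.0 and 45.5, and that summit lay 16 bp from a TSS of MED7. Neither replicate's own list held either peak. HIPP1 and SMC2 had promoter summits in the optimal set and replicate 1's list and not in the conservative set, and Nup98-96 had them in both replicates' own lists and not in the conservative set. Over the 3 lists, 6 of 33 genes (18.2%) were bound in the conservative set beside 11.3% of all protein-coding genes, 6 in replicate 1's list beside 8.09%, and 3 in replicate 2's beside 7.35%.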

How the data were processed

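Peaks came from lists deposited with dm6 coordinates, per the labels. There was, for each replicate, a ranked and a thresholded list, and the same for 2 sets derived from both libraries, 8 lists in all. The signal of a peak is the authors' own value, with no stated unit. The deposited score rescales the IDR to at most 1000, and the authors' ranked lists hold the −log10 of the global IDR, from which the IDRs printed were computed. Every thresholded peak had an IDR of 0.01 or less in its own ranked list. Which aligner and peak caller were used is not given in the sources used here. Control libraries were not analysed here. In the conservative set 92.3% of peaks had the same width of 296 bp, with the summit at the centre, so peak edges carry little information. The labels give sonicated fragments of 200 to 800 bp, which limits how finely a summit is placed.

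Summits were placed on the Ensembl release 115 annotation and the Release 6 genome with Python 3.11.15, numpy 2.4.6, pandas 2.3.3 and matplotlib 3.10.9. Replicate signals are those of the strongest peak that overlaps by at least 1 bp in each replicate's own ranked list. Gene body means inside the gene and over 500 bp from its TSSs. The search was tested on simulated data. With 1 group no test was made, and counts stand beside the share of all protein-coding genes. Named genes are the 10, genes with a TSS within 500 bp of their promoter summits, bound genes of the 3 further lists and CG5953; divergent or overlapping neighbours, pst, and unbound genes of the lists were named after their values were seen. The 10 genes, lists and motifs were chosen with earlier results of these data known. Alternatives were the optimal set, each replicate's list, stricter signal, no threshold, other windows, nearest or 5′-most TSS and a 50% overlap.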

Additional observations from a re-analysis of the deposited data

How the results depend on the processing

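The count of bound genes among the 10 was 8, beside 11.3% of protein-coding genes. It was 5 with replicate 1's list (8.09%) and 4 with replicate 2's (7.35%), 5 for signals at or above the conservative median (6.78%), and 5 with the 5′-most TSS alone (9.65%). It stayed within 1.5 times of 8 with the optimal set (7, beside 12.1%), windows of 250 bp (7, beside 8.73%) and 1000 bp (8, beside 13.8%), nearest TSS only (6, beside 8.58%) and no threshold (10, beside 82.8%). The count with gene body summits was 1, beside 6.30%. It was 2 with the optimal set (6.98%), 1 and 2 with the replicates' lists (4.49 and 3.82%), and 10 without a threshold (76.4%). Without a threshold the further DNA-binding genes went from 0 to 10 of 11 and cofactors from 4 to 11 of 12. Cohesin and condensin genes went from 2 to 8 of 10. These counts stand beside 82.8% of protein-coding genes and are near that share. The cohesin and condensin count was 1 with replicate 1's list (8.09%) and 0 with replicate 2's (7.35%). It was 1 for signals at or above the median (6.78%), 0 at 250 bp (8.73%) and 1 with nearest TSS only (8.58%). The cause of these shifts was not tested. A 50% overlap gave the same replicate signals for the 10 genes. The psq promoter peak has no optimal-set value. Signal columns of the list that compares the replicates were not run, because no source used here names the replicate of each column. No paired analysis was possible because there is 1 group. The limits are 2 replicates, unknown depth and a signal without a stated unit.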
